A study of Mus musculus with 8 samples.

Results

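The endocannabinoid system of mouse bone marrow-derived dendritic cells (DCs) was described here through 8 genes, those of the cannabinoid receptors CB1 and CB2 (Cnr1 and Cnr2), of enzymes that make their lipid ligands (Daglb and Napepld) and of enzymes that break them down (Mgll, Faah, Abhd6 and Abhd12). The 8 genes were picked by name, and every probe set annotated to exactly 1 of the 8 symbols was taken, which gave 15 probe sets of the 45037 tested. For each gene the probe set with the highest mean log2 signal is the main one, and the others are given beside it.

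The cells were immature DCs grown for 9 days from bone marrow of 6-week-old female BALB/c mice with 200 U/mL of GM-CSF, the concentration in the sample labels. They received 75 μg/mL of [BF/S+L/Ep], the butanol fraction of a stem and leaf extract of Echinacea purpurea, in 0.1% DMSO, or the vehicle, 0.1% DMSO alone. RNA was taken after 12 h or 4 h and put on Affymetrix mouse whole-genome arrays, 2 arrays in each of 4 groups: [BF/S+L/Ep] 12 h, DMSO 12 h, [BF/S+L/Ep] 4 h and DMSO 4 h. The study describes the 2 arrays of a group as biological replicates of cell culture. It does not say whether their bone marrow came from different mice, or which treated and vehicle cultures were run together, so the p-values measure the spread between these cultures.

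Endocannabinoids are lipids that cells make on demand from membrane phospholipids. The main ones, 2-arachidonoylglycerol (2-AG) and anandamide, act on CB1, best known from neurons, and on CB2, best known from immune cells, and both receptors signal through inhibitory G proteins. Diacylglycerol lipases make 2-AG, the phospholipase D encoded by Napepld makes anandamide and related N-acylethanolamines, and serine hydrolases end the signal. Some alkylamides of Echinacea plants are known as ligands of CB2. The study names no alkylamide among the compounds it lists for [BF/S+L/Ep].

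Signals are MAS5 values on a linear scale, and a probe set was read as near background when it lay under a reference taken from receptors of smell, pheromones and taste, the 95th percentile of 86 such probe sets on the same array. This reference lay between 66.5 and 106.5 over the 8 arrays, and between 48.8% and 54.9% of all probe sets exceeded it. It was lower on every treated array (between 66.5 and 75.6) than on every vehicle array (between 79.5 and 106.5). An equal signal can thus exceed it on a treated array and not on a vehicle array. Arrays of the same group correlated at between 0.982 and 0.986 (log2 signal, 19057 probe sets), and no array stood apart by this measure. Of the lists of cell type markers, conventional DC genes (7 of 7 measured) and macrophage genes (5 of 5) exceeded the reference on 4 or more arrays, against 2 of 5 neutrophil, 1 of 5 B cell, 0 of 4 T and NK cell, 2 of 5 mast cell and 1 of 4 neuron genes. The summed signal of the DC markers lay between 152552 and 177471. Such linear sums are carried by their brightest genes and do not measure the share of a cell type. Among the DC markers, Cd74, H2-Ab1 and H2-Aa each read at least 37740.9, and Zbtb46 and Ciita each at most 1137.5. Flt3 read between 36.9 and 145.1 and exceeded the reference on 6 arrays.

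Of the 8 genes, Cnr2, Daglb, Mgll and Abhd12 were above the reference on all 8 arrays, Napepld was above it on 7, and Cnr1, Faah and Abhd6 were near background. Of the 15 probe sets 7 exceeded the reference on all 8 arrays, and 1 more on 4 or more of them. Over all probe sets tested, 42.31% exceeded it on all 8 arrays and 51.97% on 4 or more, and those that did so on 4 or more are called measurable from here on. Between [BF/S+L/Ep] and DMSO no probe set of the 8 genes passed the test at either time. The 1 call in any comparison of 2 groups was Daglb, which fell with time under [BF/S+L/Ep]. A moderated F test over the 4 group means called 2 of the 15 probe sets, Daglb (adjusted p 0.0172) and an Mgll probe set near background (1431331_at, adjusted p 0.0387), where 3.66% of all probe sets were called.

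**Figure D1:**
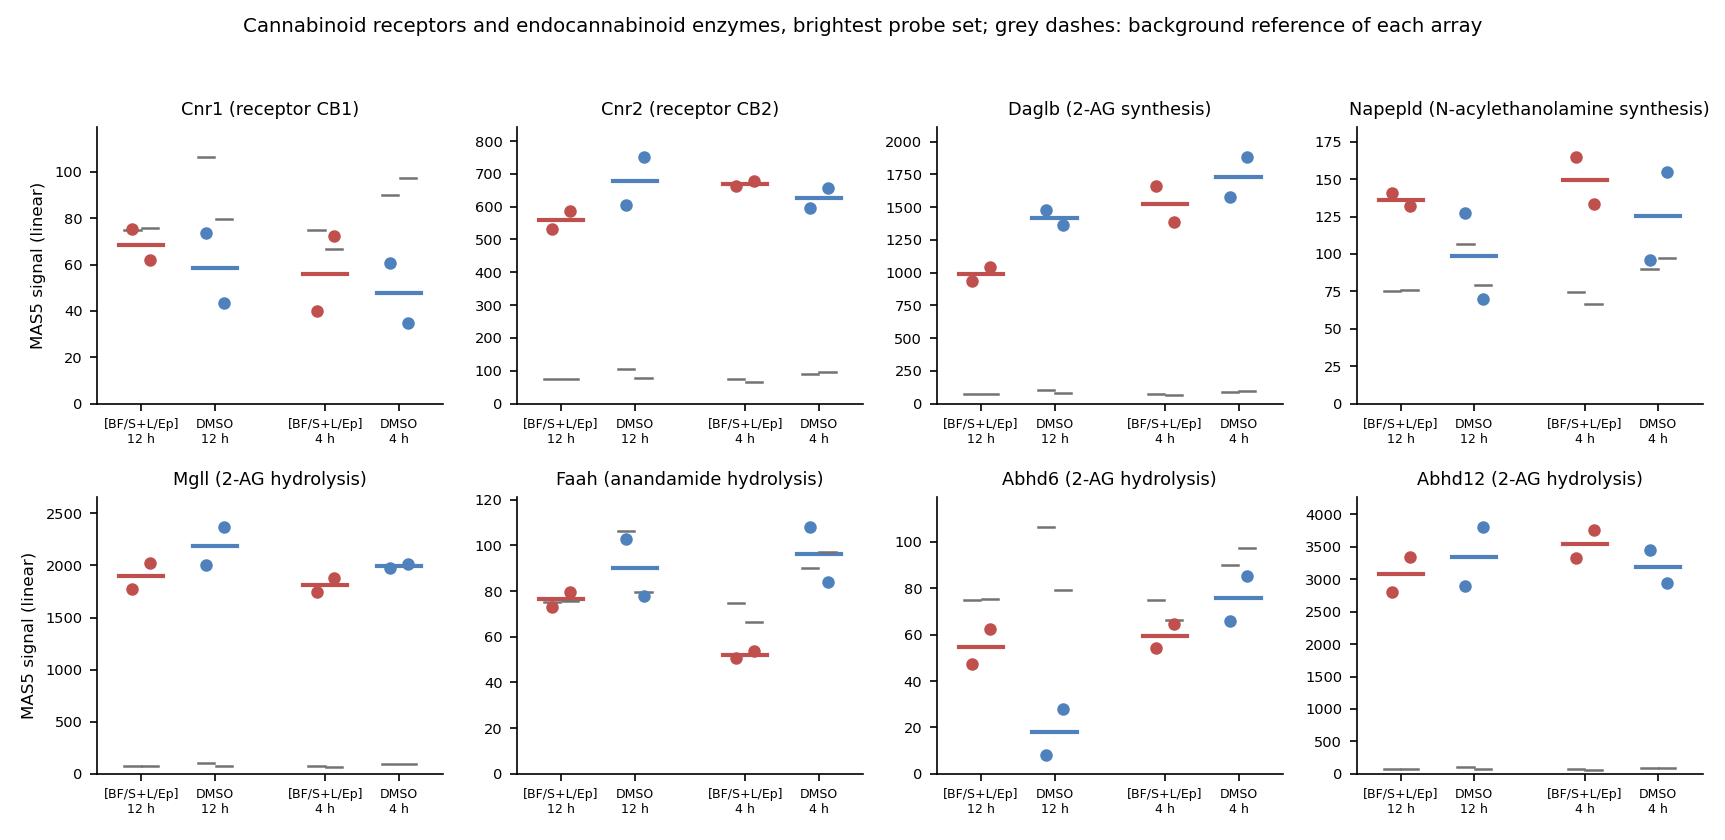
MAS5 signal (linear axis from 0) of the main probe set of each gene on each of the 8 arrays, with [BF/S+L/Ep] in red and DMSO in blue. Points are arrays, coloured bars the mean of 2 arrays and grey dashes the background reference of each array. Cnr2, Daglb, Mgll and Abhd12 lie above the dashes on all 8 arrays, and Daglb in [BF/S+L/Ep] at 12 h, at 936.3 and 1042.9, lies under all other arrays.

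Among the receptors, Cnr2, which encodes the immune cannabinoid receptor CB2, had a clear signal and Cnr1 did not. At 12 h Cnr2 (1450476_at) had signals of 530.8 and 587.8 in DCs given [BF/S+L/Ep], against 605.6 and 752.1 in DMSO. At 4 h it had 662.7 and 677.9 in [BF/S+L/Ep], against 596.2 and 655.9 in DMSO. The treated arrays were thus both under the vehicle arrays at 12 h and both over them at 4 h. Its signal was between 5.685 and 10.2 times the reference of the array.

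Neither treatment difference of Cnr2 passed the test. The log2 difference was -0.27 at 12 h (95% interval -0.62 to 0.07, adjusted p 0.890) and 0.10 at 4 h (-0.24 to 0.44, adjusted p 0.9996). The effect at 12 h minus that at 4 h was -0.37 (-0.86 to 0.11, adjusted p 1.0), and 3.52% of all measurable probe sets had groups that did not overlap at either time in opposite directions. B cells also express Cnr2, and of the B cell markers Cd79a, Cd79b and Ms4a1 were under the reference on all 8 arrays and Pax5 on 5, while Ighm was above it on all 8. The summed B cell signal lay between 335 and 381 in [BF/S+L/Ep] and between 316 and 371 in DMSO at 12 h, and between 332 and 392 in [BF/S+L/Ep] and between 451 and 502 in DMSO at 4 h. All genes of this sum but Ighm were near background, and the background reference was lower on every treated array than on every vehicle array. The sum is thus in part background signal and does not measure B cells. The part of B cells in the Cnr2 values was not tested. In these bulk samples fewer cells of a type and less RNA per cell cannot be told apart.

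Cnr1, the gene of the neuronal receptor CB1, was near background with both probe sets. At 12 h the main one (1419425_at) read 75.3 and 61.9 in [BF/S+L/Ep], against 73.6 and 43.5 in DMSO, and at 4 h it read 39.9 and 72.1 in [BF/S+L/Ep], against 60.6 and 34.8 in DMSO. It exceeded the reference on 2 arrays, 1 treated array at each time, and the groups overlapped at both times. The treated arrays had the lower references. At 12 h the treated signal of 75.3 was over a reference of 75.1, and the DMSO signal of 73.6 was under one of 106.5. The second probe set (1434172_at) read between 4.4 and 48.2 and exceeded the reference on 0 arrays. No fold is given for Cnr1.

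Of the genes for synthesis, Daglb, which encodes diacylglycerol lipase beta, the form known for making 2-AG in macrophages and other myeloid cells, was the 1 member called between 2 groups. At 12 h its probe set (1451970_at) had signals of 936.3 and 1042.9 in DCs given [BF/S+L/Ep], against 1476.0 and 1362.1 in DMSO. At 4 h it had 1658.5 and 1386.3 in [BF/S+L/Ep], against 1574.8 and 1884.8 in DMSO. Both treated arrays at 12 h were under all 6 others, and at 4 h the groups overlapped.

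Daglb fell to 0.652 of its 4 h signal at 12 h in [BF/S+L/Ep] (log2 difference -0.62 ± 0.14 SE, 95% interval -0.91 to -0.32, adjusted p 0.0289). It was 1 of the 8 measurable probe sets called lower there, where 1.31% of all probe sets tested were called lower and 2.86% were called in either direction. In DMSO the log2 difference over the same interval was -0.28 ± 0.14 (-0.58 to 0.02, adjusted p 0.441), with both 12 h arrays under both 4 h arrays. The call in [BF/S+L/Ep] was held in 11 of 16 alternative analyses. It was lost without the [BF/S+L/Ep] 4 h replicate 1 array (adjusted p 0.217), without the [BF/S+L/Ep] 12 h replicate 1 array (0.227), without the [BF/S+L/Ep] 12 h replicate 2 array (0.0795), with only the 4 arrays of that treatment (0.0775) and with moderation that ignores intensity (0.416).

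The treatment difference of Daglb itself did not pass. At 12 h it was -0.52 ± 0.14 on the log2 scale (-0.82 to -0.22), with an unadjusted p of 0.00224 and a limma adjusted p of 0.482, and at 4 h it was -0.18 ± 0.14 (adjusted p 0.997). The difference between the 2 effects, -0.34 (-0.76 to 0.08, adjusted p 1.0), is also that between the 2 time courses, so a steeper course in [BF/S+L/Ep] than in DMSO was not detectable with 2 arrays a group. The summed macrophage markers lay at 66817 to 73287 in [BF/S+L/Ep] and 68232 to 68387 in DMSO at 12 h, all above the 57972 to 58667 in [BF/S+L/Ep] and 58786 to 60084 in DMSO at 4 h. The summed DC markers lay at 152552 to 155742 in [BF/S+L/Ep] at 12 h and at 162397 to 177471 in [BF/S+L/Ep] at 4 h, and in DMSO at 156192 to 165439 at 12 h and at 165345 to 168349 at 4 h. Most of the macrophage sum came from Csf1r and Cd14, and most of the DC sum from Cd74, H2-Ab1 and H2-Aa. The part of these cell types in the Daglb values was not tested.

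Napepld, the gene of the phospholipase D that releases N-acylethanolamines, was weak. At 12 h its probe set (1437872_at) read 140.6 and 131.8 in [BF/S+L/Ep], against 127.6 and 70.1 in DMSO, and at 4 h 165.0 and 133.5 in [BF/S+L/Ep], against 96.1 and 154.5 in DMSO. The groups overlapped at 4 h, the treated arrays were higher at 12 h, and 1 of the DMSO arrays at 12 h was under its reference. The log2 difference was 0.53 at 12 h (-0.41 to 1.46, adjusted p 0.924) and 0.28 at 4 h (-0.65 to 1.22, adjusted p 0.9996), with the widest intervals among the 8 measurable probe sets. With each array left out in turn the 12 h difference ranged between 0.09 and 0.96.

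Mgll, which encodes monoacylglycerol lipase, the main enzyme of 2-AG breakdown, had 3 probe sets with a clear signal and 1 near background. At 12 h the main one (1426785_s_at) read 1769.6 and 2027.3 in DCs given [BF/S+L/Ep], against 2003.4 and 2369.3 in DMSO. At 4 h it read 1743.9 and 1876.3 in [BF/S+L/Ep], against 1977.4 and 2016.9 in DMSO. The groups overlapped at 12 h and the treated arrays were lower at 4 h, with log2 differences of -0.20 (-0.46 to 0.06, adjusted p 0.893) and -0.14 (-0.40 to 0.12, adjusted p 0.9996).

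The second Mgll probe set (1450391_a_at) had lower treated than vehicle signals at both times. At 12 h it read 1161.1 and 1247.7 in [BF/S+L/Ep], against 1626.8 and 1541.7 in DMSO, and at 4 h 1245.5 and 1037.9 in [BF/S+L/Ep], against 1455.9 and 1581.2 in DMSO. All 4 treated arrays were under all 4 vehicle arrays. Averaged over both times the log2 difference was -0.41 ± 0.09 (-0.60 to -0.21), with an unadjusted p of 5.93e-04 and a limma adjusted p of 0.198, so it did not pass over the whole table. It was the 1 of 8 measurable member probe sets whose treated arrays were lower than the vehicle arrays at both times, where 4.49% of all measurable probe sets were, and 0 were higher at both times, where 4.64% were.

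The third Mgll probe set (1453836_a_at) showed no such difference. At 12 h it read 997.8 and 1202.5 in [BF/S+L/Ep], against 997.3 and 1243.6 in DMSO, and at 4 h 748.0 and 1227.1 in [BF/S+L/Ep], against 897.0 and 993.0 in DMSO. The treated arrays at 4 h lay on both sides of the vehicle arrays, and the averaged log2 difference was 0.00 (-0.31 to 0.31, adjusted p 0.999). The averaged differences of the Mgll probe sets with a clear signal thus varied, and whether they differ was not tested. Over the 8 arrays Pearson's r of their log2 signals was 0.62 and 0.60 between the main one and the other 2. Between those 2 it was -0.12, as a description over arrays that share groups.

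The fourth Mgll probe set (1431331_at) was above the reference on 1 array. At 12 h it read 7.2 and 4.2 in [BF/S+L/Ep], against 90.2 and 57.9 in DMSO, and at 4 h 64.8 and 38.1 in [BF/S+L/Ep], against 109.9 and 83.2 in DMSO. The treated arrays were lower at both times, with an adjusted p of 0.338 at 12 h and 0.9996 at 4 h, and its 4 group means differed by the F test (adjusted p 0.0387). The signals were near background on 7 of 8 arrays, so no fold is given.

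**Figure D2:**
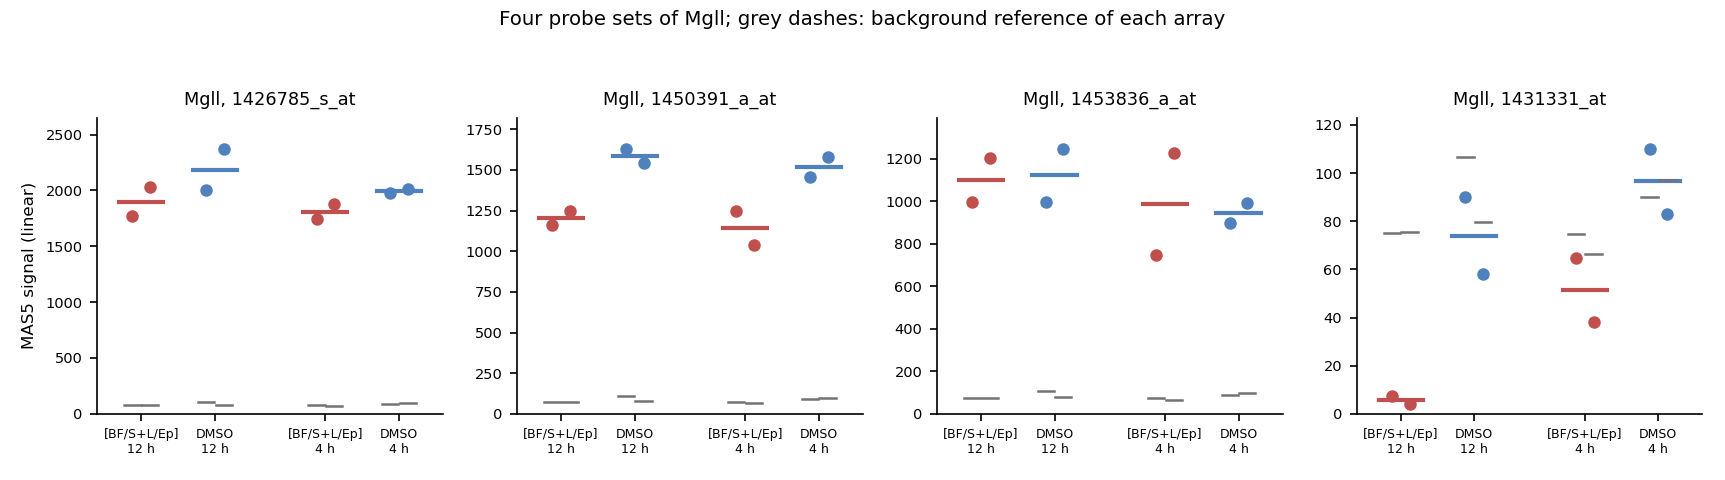
MAS5 signal (linear axis from 0) of the 4 Mgll probe sets on each of the 8 arrays, with [BF/S+L/Ep] in red and DMSO in blue. Points are arrays, coloured bars the mean of 2 arrays and grey dashes the background reference of each array. The treated arrays of 1450391_a_at, between 1037.9 and 1247.7, lie under its vehicle arrays, between 1455.9 and 1626.8, while those of 1453836_a_at overlap.

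Abhd12, a serine hydrolase that also hydrolyses 2-AG and lysophosphatidylserine, had a clear signal on all 8 arrays. At 12 h its main probe set (1417669_at) read 2806.7 and 3342.9 in [BF/S+L/Ep], against 2891.1 and 3806.2 in DMSO, and at 4 h 3321.5 and 3764.5 in [BF/S+L/Ep], against 3445.7 and 2939.0 in DMSO. The groups overlapped at both times, and the averaged log2 difference was 0.02 (-0.20 to 0.24, adjusted p 0.985). The second probe set (1453367_a_at) read between 2014.0 and 3117.2, with both ends of this range in [BF/S+L/Ep] at 4 h, and its averaged log2 difference was -0.02 (-0.32 to 0.29, adjusted p 0.990). Its 4 groups had means between 2511 and 2566, closer together than the 2 arrays of any of them.

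Faah, the fatty acid amide hydrolase that degrades anandamide, was near background. At 12 h its main probe set (1421969_a_at) read 72.9 and 79.8 in [BF/S+L/Ep], against 102.9 and 77.7 in DMSO, and at 4 h 50.5 and 53.6 in [BF/S+L/Ep], against 108.1 and 84.0 in DMSO. It exceeded the reference on 2 arrays, and the groups overlapped at 12 h, while at 4 h both treated arrays were lower. The second probe set (1434091_at) exceeded the reference on 3 arrays. At 12 h it read 125.1 and 11.8 in [BF/S+L/Ep], against 89.4 and 88.8 in DMSO, and at 4 h 48.9 and 127.8 in [BF/S+L/Ep], against 35.2 and 39.0 in DMSO. At 4 h the 2 Faah probe sets thus lay in opposite directions, with the treated arrays of the second one higher. Faah is also the member whose place depends on the reference: with the 90th percentile of the same receptors, its probe sets exceeded the reference on 5 and 4 arrays.

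Abhd6, another hydrolase of 2-AG, known from neurons and several peripheral tissues, was also near background. At 12 h its main probe set (1419103_a_at) read 47.3 and 62.3 in [BF/S+L/Ep], against 8.0 and 28.0 in DMSO, and at 4 h 54.4 and 64.7 in [BF/S+L/Ep], against 65.8 and 85.5 in DMSO. All 8 values were under the reference. The second probe set (1419104_at) read between 5.0 and 79.5 and exceeded the reference on 1 array. No fold is given for Faah or Abhd6.

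Read as a group, the 8 measurable probe sets gave 0 calls for treatment at 12 h, where 0.02% of all probe sets were called, 0 at 4 h, where 0.00444% were called, and 0 for the average of both times, where 0.107% were called. They also gave 0 calls for the difference between the times (0.0% of all probe sets) and for 12 h against 4 h in DMSO (2.1%). At an unadjusted p under 0.05, 4 of all 15 probe sets passed at 12 h (5.96% of all probe sets), 1 at 4 h (4.97%), 4 for the average (7.08%), 1 for the difference (3.66%), 1 for time in DMSO (12.4%) and 2 for time in [BF/S+L/Ep] (13.8%). Some of these 15 were near background, and the counts among the 8 were 2 at 12 h, 1 at 4 h, 2 for the average, 0 for the difference, 0 for time in DMSO and 1 for time in [BF/S+L/Ep].

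The median log2 treatment difference of the 8 was -0.16 at 12 h and 0.01 at 4 h, against 0.0 at both times over all measurable probe sets. Over all probe sets tested it was -0.03 at 12 h and -0.02 at 4 h. At 12 h the arrays did not overlap with treated lower in 3 of the 8 and treated higher in 1, where 19.1% and 17.5% of all measurable probe sets did so. At 4 h the counts were 2 lower, both of them Mgll probe sets, and 1 higher, against 16.3% and 16.1%. The 8 probe sets belong to 5 genes, with several each for Mgll and Abhd12, so they are not independent of each other. Over time, 2 of the 8 were lower at 12 h without overlap in [BF/S+L/Ep] (23.7% of all measurable probe sets) and 0 higher (26.3%). In DMSO 1 was lower (23.1%) and 1 higher (26.1%).

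**Figure D3:**
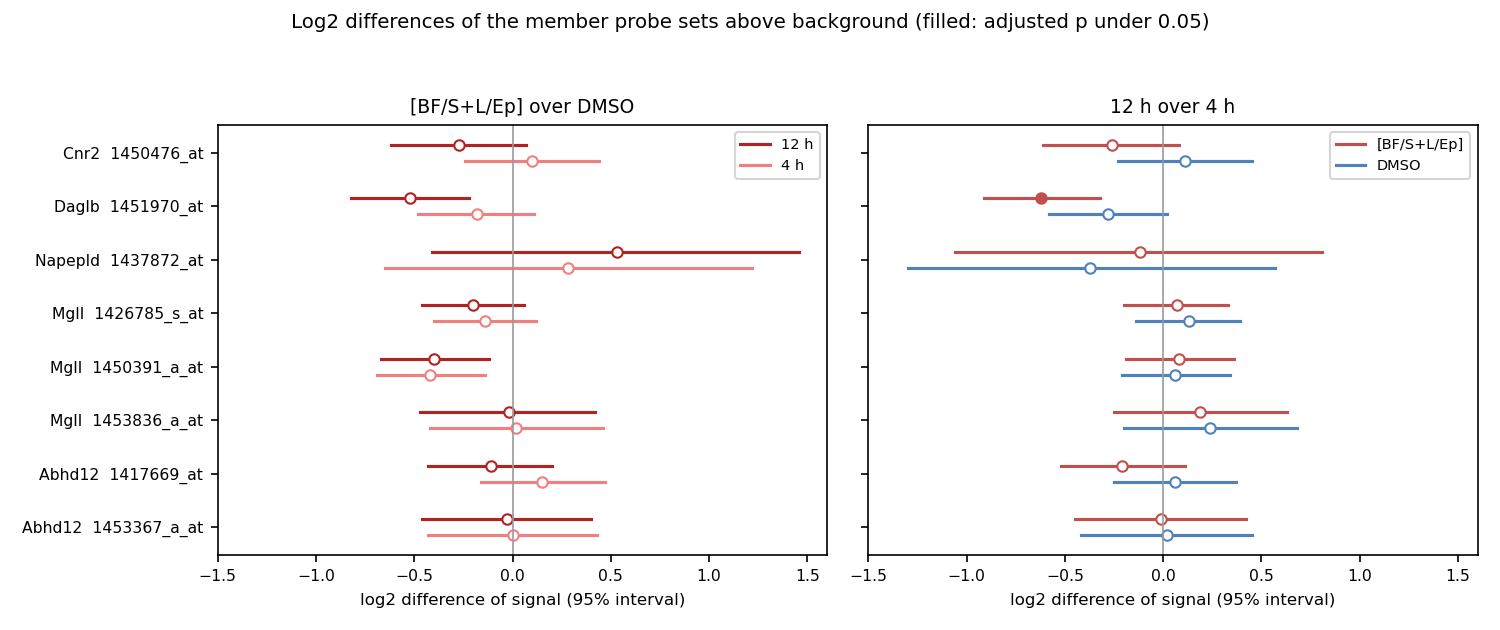
Log2 difference of signal with its 95% interval (limma) for the 8 measurable probe sets, for [BF/S+L/Ep] over DMSO at 12 h and 4 h on the left and for 12 h over 4 h in [BF/S+L/Ep] and DMSO on the right. Filled points have an adjusted p under 0.05. The 1 filled point is Daglb over time in [BF/S+L/Ep], at -0.62, and the intervals of Napepld are the widest.

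Among genes measured above the reference on all 8 arrays (9448 genes, brightest probe set), those whose pattern over the 8 arrays was most like that of Daglb were Tmem107, Cmip and Rgs2, with Pearson's r of 0.983, 0.982 and 0.979. Rgs2 encodes a regulator of G protein signalling, and its mean signal was 6829 in [BF/S+L/Ep] and 8490 in DMSO at 12 h, against 8686 in [BF/S+L/Ep] and 9300 in DMSO at 4 h. In all, 141 genes had an r over 0.9 with Daglb. The main Mgll probe set was most like Wrap53 (r 0.939), Cerk (0.929) and Cd68 (0.925), and 6 genes had an r over 0.9. These are descriptions over 8 arrays in 4 groups, with the genes picked as the highest of many.

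Other genes of the pathway were described from a list of 41 (further synthesis and hydrolysis enzymes, oxygenases, other receptors linked to these lipids, carriers, and G proteins and arrestins), of which 39 were measured and 29 were measurable. None passed for treatment at 12 h or 4 h, for the average or for the difference, and at an unadjusted p under 0.05 the counts were 6 (5.96% of all probe sets), 0 (4.97%), 5 (7.08%) and 1 (3.66%). Over time, 2 were called higher and 2 lower at 12 h in [BF/S+L/Ep], and 2 higher and 1 lower in DMSO, where 1.55% and 1.31% of all probe sets were called higher and lower in [BF/S+L/Ep] and 1.18% and 0.921% in DMSO. At an unadjusted p under 0.05 the counts over time were 16 in [BF/S+L/Ep] (13.8% of all probe sets) and 11 in DMSO (12.4%). The median log2 treatment difference of the 39 was 0.05 at 12 h and 0.05 at 4 h, against -0.03 and -0.02 over all probe sets tested. Over the 29 measurable ones it was 0.0 at 12 h and 0.05 at 4 h, against 0.0 at both times over all measurable probe sets.

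In the synthesis group 12 of 13 genes were measurable. Dagla, the other diacylglycerol lipase, read between 23.7 and 163.6 and was above the reference on 7 arrays. Gdpd1, whose product can release N-acylethanolamines from lysophospholipids, read 633.5 and 611.9 in [BF/S+L/Ep] and 702.5 and 615.6 in DMSO at 12 h, against 387.4 and 276.2 in [BF/S+L/Ep] and 299.0 and 301.3 in DMSO at 4 h. It rose over time by 0.93 (log2, adjusted p 0.0210) in [BF/S+L/Ep] and by 1.13 (adjusted p 0.00797) in DMSO, and its second probe set (1424077_at) gave 0.94 (adjusted p 0.0304) and 0.59 (adjusted p 0.231). Each Gdpd1 call was held in 11 of 16 alternatives. Both were lost with moderation that ignores intensity (limma adjusted p 0.3003 in [BF/S+L/Ep] and 0.2521 in DMSO). With only the 4 arrays of that treatment the call in [BF/S+L/Ep] was also lost (0.0675). The one in [BF/S+L/Ep] was lost without the 4 h replicate 2 array (adjusted p 0.126) or the 12 h replicate 1 (0.152) or replicate 2 (0.101) array of that treatment, and the one in DMSO without any 1 of the 4 DMSO arrays (0.0514 to 0.0992).

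Gde1, a phosphodiesterase that completes anandamide synthesis by a route without Napepld, read 1215.2 and 1268.4 in [BF/S+L/Ep] and 1235.2 and 1548.4 in DMSO at 12 h. At 4 h it read 1751.1 and 1811.4 in [BF/S+L/Ep] and 1777.4 and 1632.0 in DMSO. It fell by 0.52 (log2, adjusted p 0.04998) in [BF/S+L/Ep], a call at the threshold held in 5 of 16 alternatives and lost without any 1 of the 4 [BF/S+L/Ep] arrays (adjusted p 0.154 to 0.264) or either DMSO 4 h array (0.0883 and 0.0890). Its difference in DMSO was -0.30 (adjusted p 0.354).

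Of the other hydrolases, Naaa, the acid amidase that degrades N-acylethanolamines in lysosomes, fell at 12 h under both conditions. It read 3094.3 and 3498.0 in [BF/S+L/Ep] and 3614.9 and 4307.1 in DMSO at 12 h, against 5833.1 and 6548.6 in [BF/S+L/Ep] and 6923.0 and 6362.8 in DMSO at 4 h. The log2 difference over time was -0.91 (adjusted p 8.68e-04) in [BF/S+L/Ep] and -0.75 (adjusted p 0.00455) in DMSO. A second probe set (1452068_at) gave -0.59 (adjusted p 0.0323) and -0.57 (adjusted p 0.0462). Both calls of the main probe set were lost with moderation that ignores intensity (limma adjusted p 0.248 in [BF/S+L/Ep] and 0.356 in DMSO). The call in DMSO was lost without the DMSO 12 h replicate 1 array (adjusted p 0.0786) or the DMSO 4 h replicate 1 array (0.0812). Lipe, hormone-sensitive lipase, read 478.6 and 557.0 in [BF/S+L/Ep], against 338.1 and 391.0 in DMSO at 12 h, and 383.8 and 466.6 in [BF/S+L/Ep], against 357.7 and 381.3 in DMSO at 4 h. Its treated arrays were higher at both times, as were those of 4.64% of all measurable probe sets. The averaged log2 difference was 0.35 (0.06 to 0.64, adjusted p 0.620). Lipe was named for its small p in this contrast, so the interval is a selected one.

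Among the oxygenases, Ptgs2, Alox12 and Alox15, whose products oxidise arachidonoyl lipids, were near background, with highest signals of 92.7, 62.1 and 33.0. Alox5, the 5-lipoxygenase of leukotriene synthesis, read 617.8 and 596.1 in [BF/S+L/Ep], against 462.8 and 430.1 in DMSO at 12 h, and 494.0 and 449.6 in [BF/S+L/Ep], against 425.4 and 474.2 in DMSO at 4 h. At 12 h the treated arrays were higher without overlap, as were those of 17.5% of all measurable probe sets, and at 4 h the groups overlapped. The averaged log2 difference was 0.26 (0.01 to 0.51, adjusted p 0.699). Alox5 was also named for its small p in this contrast. Of the other receptors, Gpr18, Trpv2, Pparg and Ppard were above the reference on all 8 arrays, with Gpr18 between 591.8 and 779.5 and Trpv2 between 1769.7 and 2597.3. Trpv1 and Ppara were under it on all 8.

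Of the carriers, Fabp4, a fatty acid-binding protein of adipocytes and macrophages, was called over time under both conditions. It read 684.3 and 566.3 in [BF/S+L/Ep] and 1003.9 and 1018.4 in DMSO at 12 h, against 306.4 and 235.3 in [BF/S+L/Ep] and 280.8 and 296.8 in DMSO at 4 h. It rose by 1.21 (log2, adjusted p 0.00294) in [BF/S+L/Ep] and by 1.81 (adjusted p 1.48e-04) in DMSO. At 12 h both treated arrays were under both vehicle arrays, as in 19.1% of all measurable probe sets. The log2 difference was -0.70 (-1.10 to -0.30, adjusted p 0.489). The difference between the treatment effects, -0.60 (-1.16 to -0.03), had an adjusted p of 1.0. A second probe set (1451263_a_at) gave 1.06 (adjusted p 0.0504) over time in [BF/S+L/Ep] and 1.44 (adjusted p 0.0113) in DMSO. Both calls of the main probe set were lost with moderation that ignores intensity (limma adjusted p 0.2004 in [BF/S+L/Ep] and 0.1155 in DMSO). The main call in [BF/S+L/Ep] was lost without the [BF/S+L/Ep] 12 h replicate 1 array (adjusted p 0.0522). Fabp5, which is known to carry anandamide inside cells, read between 41651.5 and 50677.0.

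Of the signalling partners, Gnai2 and Gnai3, inhibitory G protein subunits to which CB2 couples, were above the reference on all 8 arrays, with Gnai2 between 11653.3 and 16673.2, while Gnai1 was under it on all 8. Arrb1, beta-arrestin 1, which turns off activated receptors, read 2905.2 and 2800.3 in [BF/S+L/Ep], against 2321.9 and 2400.2 in DMSO at 12 h, and 3597.9 and 3176.7 in [BF/S+L/Ep], against 3115.4 and 3063.1 in DMSO at 4 h. The treated arrays were higher at both times, as were those of 4.64% of all measurable probe sets. The averaged log2 difference was 0.20 (0.04 to 0.36, adjusted p 0.596). Arrb1 was named for its small p in this contrast, so the interval is a selected one.

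**Figure D4:**
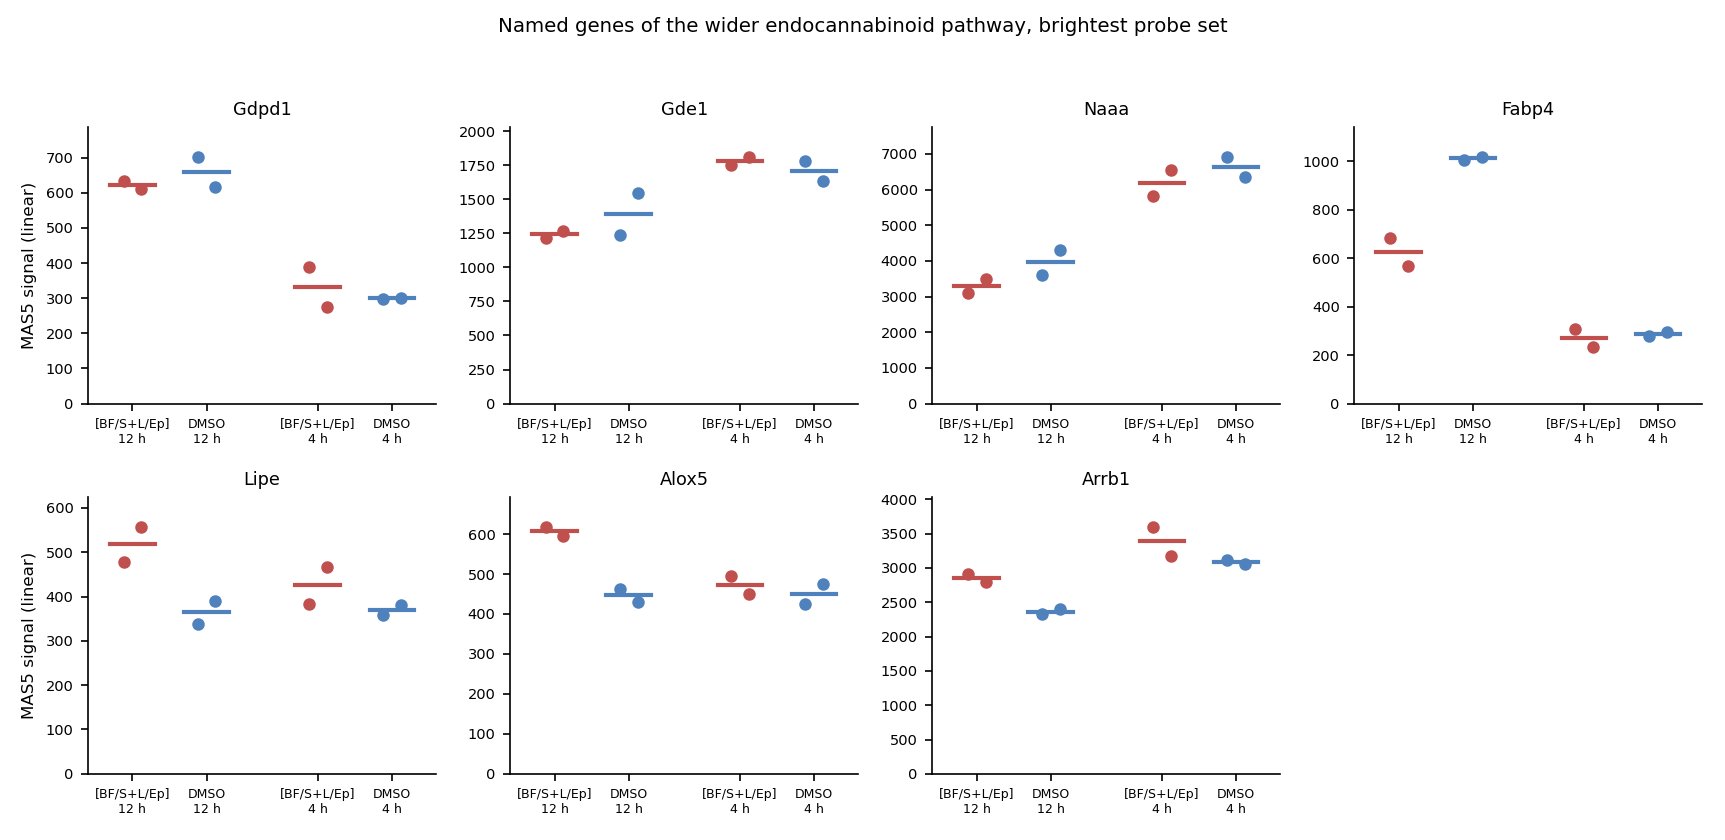
MAS5 signal (linear axis from 0) of 7 further pathway genes on each of the 8 arrays, with [BF/S+L/Ep] in red and DMSO in blue, points for arrays and bars for the mean of 2 arrays. Gdpd1 and Fabp4 lie higher, and Naaa and Gde1 lower, at 12 h than at 4 h, and Fabp4 at 12 h reads 684.3 and 566.3 in [BF/S+L/Ep] and 1003.9 and 1018.4 in DMSO.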

How the data were processed

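The intensity values used were deposited by the authors as MAS5 signals, 1 per probe set and array on a linear scale. The trimmed mean of each array, with 2% removed at each end, was 500.0. No source used here names the MAS5 version. Probe sets were named from the platform annotation. The 64 control probe sets of 45101 were left out, and of the 45037 tested 34945 have 1 symbol, 932 several and 9160 none. The number of arrays, 2 a group, limits the precision.

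Log2 signals were fitted in limma 3.58.1 (R 4.3.3) with the mean of each of 4 groups and moderation with an intensity trend. A moderated F test over the 4 group means was also made. P-values of contrasts are two-sided and were adjusted by Benjamini-Hochberg over all 45037 probe sets, with 0.05 as the threshold. The fit was tested on simulated data.

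The member genes, the pathway and marker lists and the rules were chosen with earlier results of these data known. Every member probe set was named. Of the pathway list, genes called in any contrast and the 4 with the smallest p for the averaged treatment contrast were named, 1 of which fell under both. Levels of different probe sets were not tested against each other. Alternatives were quantile normalization, median centring, an offset of 50, a filter on dim probe sets, other moderation, a replicate block, subsets of arrays, each array left out, and other background references.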

Additional observations from a re-analysis of the deposited data

Results flagged for a closer look

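Cnr2 was picked out because its treated arrays lay wholly under the vehicle arrays at 12 h and wholly over them at 4 h. Its signals were 530.8 and 587.8 in [BF/S+L/Ep], against 605.6 and 752.1 in DMSO at 12 h, and 662.7 and 677.9 in [BF/S+L/Ep], against 596.2 and 655.9 in DMSO at 4 h. The effect at 12 h minus that at 4 h was -0.37 on the log2 scale (95% interval -0.86 to 0.11), and limma's test of this difference did not pass (unadjusted p 0.121, adjusted p 1.0).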

How the results depend on the processing

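The calls on members were 0 in all alternatives of every comparison except 12 h against 4 h in [BF/S+L/Ep]. There the count of 1 (Daglb) became 0 with moderation without the intensity trend and 0 with only the 4 arrays of that treatment, and ranged between 0 and 1 when each array was left out, with 0 without the [BF/S+L/Ep] 4 h replicate 1 array or either [BF/S+L/Ep] 12 h array. The count of pathway genes called over time in DMSO, 3 of 39, became 0 without the intensity trend and ranged between 1 and 3 with each array left out. That in [BF/S+L/Ep], 4 of 39, became 0 without the trend and 2 with only the 4 arrays of that treatment, and ranged between 1 and 4 with each array left out. With quantile normalization, and with the filter on dim probe sets, these counts were 4 in DMSO and 5 in [BF/S+L/Ep]. The low ends came without a DMSO array labelled replicate 1 of either time, and without the [BF/S+L/Ep] 12 h replicate 1 array. The cause was not tested. With the replicate number as a block the counts were 1 for members over time in [BF/S+L/Ep], 4 for the pathway there, 3 for the pathway over time in DMSO and 0 otherwise, so the block changed no call count. Same-numbered arrays deviated together with correlations between -0.085 and 0.263, which with 2 arrays a group cannot settle whether arrays were paired. The study states no pairing, so the number was not taken as one. The count of 8 member probe sets above the reference was 10 with the 90th (both Faah probe sets added) and 8 with the 99th percentile, 11 on at least 2 arrays and 7 on all 8.

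Small log2 differences that did not pass changed sign. With arrays centred on their median, Mgll 1450391_a_at gave -0.01 and Abhd12 1417669_at gave -0.02 for time in DMSO, Mgll 1453836_a_at gave 0.05 for treatment at 12 h, and Gde1 gave 0.02 for the averaged treatment. Under the same centring Abhd12 1453367_a_at gave 0.04 for treatment at 12 h, 0.05 for the averaged treatment and -0.06 for time in DMSO. With each array left out, the log2 differences whose values lay on both sides of 0 ranged as follows. Cnr2 1450476_at gave -0.05 to 0.27 for time in DMSO. Napepld 1437872_at gave -0.06 to 0.63 for treatment at 4 h, -0.80 to 0.07 for time in DMSO and -0.28 to 0.03 for time in [BF/S+L/Ep]. Mgll 1426785_s_at gave -0.03 to 0.16 for time in [BF/S+L/Ep]. Mgll 1450391_a_at gave -0.05 to 0.21 for time in [BF/S+L/Ep]. Mgll 1453836_a_at gave -0.34 to 0.38 for treatment at 4 h, -0.18 to 0.14 for treatment at 12 h, -0.18 to 0.18 for averaged treatment and -0.16 to 0.55 for time in [BF/S+L/Ep]. Abhd12 1417669_at gave -0.31 to 0.08 for treatment at 12 h, -0.08 to 0.12 for averaged treatment and -0.14 to 0.26 for time in DMSO. Abhd12 1453367_a_at gave -0.32 to 0.31 for treatment at 4 h, -0.25 to 0.19 for treatment at 12 h, -0.17 to 0.14 for averaged treatment, -0.16 to 0.19 for time in DMSO and -0.33 to 0.30 for time in [BF/S+L/Ep]. Alox5 1441962_at gave -0.01 to 0.15 for treatment at 4 h and -0.09 to 0.07 for time in DMSO. Fabp4 1417023_a_at gave -0.30 to 0.09 for treatment at 4 h. Gde1 1418444_a_at gave -0.32 to 0.01 for treatment at 12 h and -0.13 to 0.04 for averaged treatment. Gdpd1 1424076_at gave -0.12 to 0.37 for treatment at 4 h, -0.17 to 0.02 for treatment at 12 h and -0.10 to 0.14 for averaged treatment. Lipe 1422820_at gave -0.13 to 0.08 for time in DMSO. The median over the 4 Mgll probe sets, 1 of them near background, was -0.29 for averaged treatment, where the main one gave -0.17. The others with a clear signal gave -0.41 and 0.00, so the probe set near background moved this median. No scaling moved the median of all probe sets by more than 0.05. Of the other log2 differences of members under the alternatives, 5 lost a call (all Daglb over time in [BF/S+L/Ep]) and 613 kept direction and call. Of those of the named pathway genes, 28 lost a call (Gde1, Gdpd1, Naaa and Fabp4 over time) and 512 kept direction and call. For the 7 of 15 member probe sets near background no separate difference is given.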
